A study of Mus musculus with 2 samples.

Results

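The pair of miRNAs described here, mmu-miR-203 and mmu-miR-205, is best known from the epithelium of the skin. The pair was picked by name, by taking every probe for a mouse miRNA whose array name was exactly mmu-miR-203 or mmu-miR-205, which gave 2 of the 696 miRNAs on the array. Their signals in the 3rd mammary gland (the gland below) were set against those in the inter mammary gland region (the flank), the body wall lying between the 3rd and 4th glands. Both tissues came from untreated ICR mouse embryos at E13.5, and the number of embryos pooled for each was not given in the sources used here. Cy3 was used to label 100 ng of total RNA per region, which was hybridized to 1 Agilent array, and both arrays were on 1 slide and in 1 scan. With 1 array per region there was no replicate, so no test was run, every spread below is over spots of an array and is technical, and precision is limited by the number of arrays.

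In the skin, miR-203 appears as keratinocytes leave the basal layer and differentiate, and it represses p63, the transcription factor that maintains epithelial progenitors. miR-205 is abundant in basal keratinocytes and in progenitor cells of the mammary epithelium. Together with the miR-200 family it represses Zeb1 and Zeb2, factors that drive loss of epithelial character. At the stage sampled here the mammary bud is a ball of epithelium that has sunk from the surface ectoderm into a condensed mesenchyme. A short stalk still joins the bud to the epidermis, and the flank beside it is covered by embryonic skin. How much skin each dissected sample held was not given in the sources used here.

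mmu-miR-203 was dimmer in the gland than in the flank, by 1.24-fold after scaling, and mmu-miR-205 had nearly the same scaled signal in both regions. Under the 4 other scalings tried, the log2 ratio of gland over flank was -0.20 to -0.15 for mmu-miR-203 and 0.10 to 0.30 for mmu-miR-205. Neither miRNA reached the 1.5-fold threshold used for calls, so 0 of the 2 were called. Among the 284 miRNAs detected on both arrays, 6 (2.11%) were at least 1.5-fold higher in the gland, 26 (9.15%) were at least 1.5-fold lower, and 32 (11.3%) passed in either direction. The count of higher miRNAs depends on the scaling and was 14 to 19 under the 4 other scalings tried. A count of 0 of 2 is near a background of that size and is no result about the pair. In bulk RNA, fewer cells holding a miRNA and less of it per cell cannot be told apart.

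The array read mmu-miR-203, the differentiation miRNA of the pair, with 2 probes of 10 spots each. No spot of them was marked as an outlier, and all 20 were well above background on each array. Averaged over the probes, its background-subtracted intensity was 1485 in the gland and 1686 in the flank. For comparison, the negative control spots, also background-subtracted, averaged 3.81 ± 5.28 (SD, 432 spots) and 2.23 ± 5.07 (SD, 428 spots). What was left of the background after subtraction was thus a very small part of either signal. The local background around the miRNA spots had a median of 75 in the gland and 67 in the flank. The brighter probe gave 1823 ± 129 (SD, 10 spots) in the gland and 2109 ± 137 in the flank. The dimmer probe gave 1147 ± 59.8 in the gland and 1264 ± 44.5 in the flank. Both probes were thus dimmer in the gland before any scaling, by 1.16-fold and 1.10-fold, and for each the difference was larger than the SD over spots on either array.

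The spots of mmu-miR-203 overlapped between the arrays to a limited extent. For the brighter probe the gland spots lay between 1610 and 1991 (median 1857), and the flank spots between 1906 and 2325 (median 2100). For the dimmer probe they lay between 1072 and 1231 (median 1134) in the gland, and between 1192 and 1318 (median 1261) in the flank. Of the 10 gland spots, 5 of the brighter probe and 7 of the dimmer probe lay under every flank spot of the same probe.

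mmu-miR-205, the basal keratinocyte and progenitor miRNA, was also read by 2 probes of 10 spots, and 18 spots in the gland and 19 in the flank remained after outliers were left out, all of them well above background. Its intensity, averaged over the probes, was 5334 in the gland and 4947 in the flank. The brighter probe gave 6546 ± 473 (SD, 10 spots) in the gland and 6086 ± 217 in the flank. The dimmer probe gave 4122 ± 73.4 (SD, 8 spots) in the gland and 3808 ± 148 (SD, 9 spots) in the flank. Before scaling, then, mmu-miR-205 was brighter in the gland with either probe, by a ratio of 1.08 for each, where mmu-miR-203 was dimmer. For its brighter probe that difference was smaller than the SD over the gland spots, and for its dimmer probe it was larger than the SD on either array.

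The spots of mmu-miR-205 overlapped too. The gland spots of its brighter probe lay between 5892 and 7222 (median 6513), and the flank spots between 5685 and 6388 (median 6088). Those of its dimmer probe lay between 3976 and 4197 (median 4133) in the gland, and between 3493 and 4014 (median 3855) in the flank. Here 5 of 10 and 7 of 8 gland spots lay above every flank spot of the same probe.

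**Figure D1:**
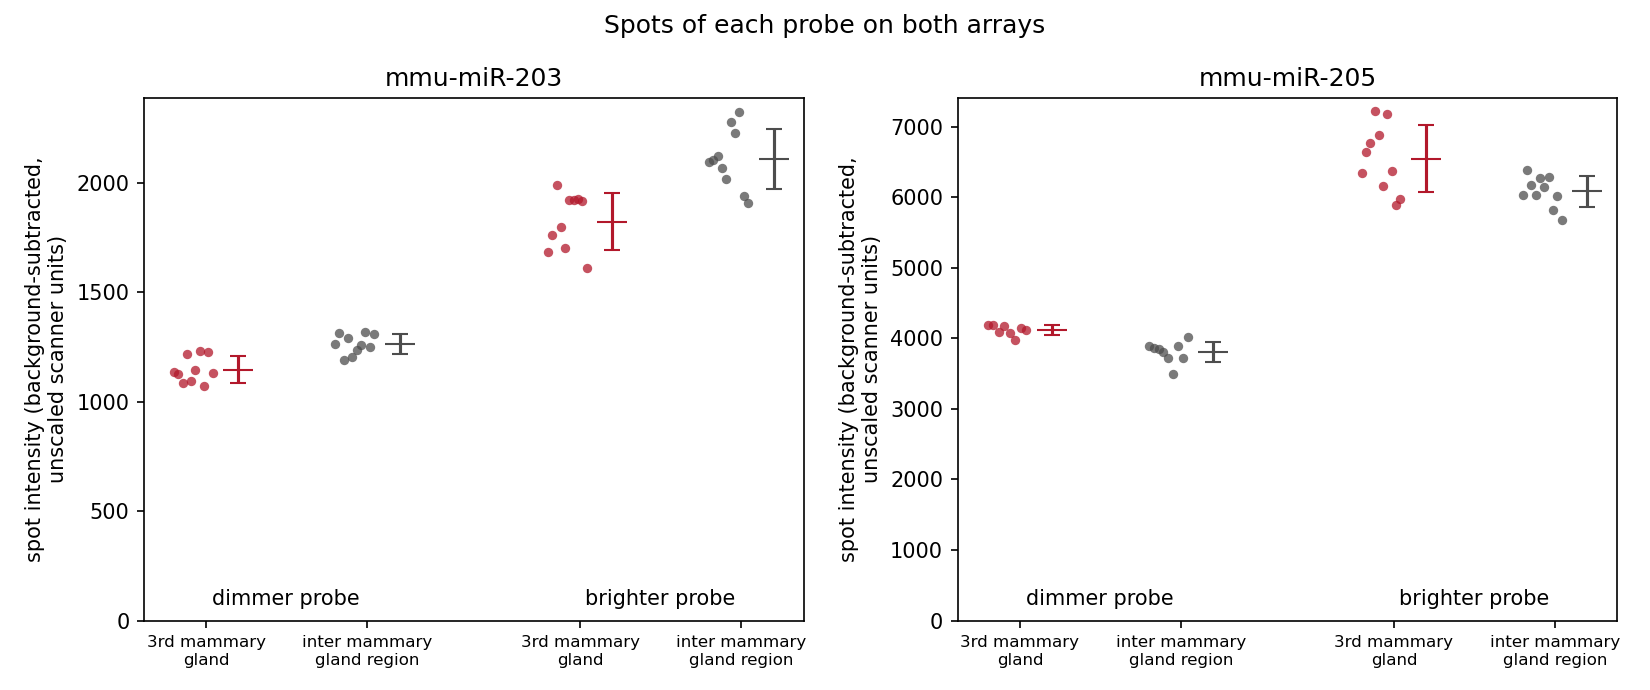
Background-subtracted intensity (unscaled scanner units, axes from 0) of each spot of the 2 probes of mmu-miR-203 and mmu-miR-205 for the gland (red) and the flank (grey), outlier spots left out, with the mean and SD over spots beside them. The gland means of mmu-miR-203 lie under the flank means (1147 against 1264 and 1823 against 2109), and those of mmu-miR-205 lie above them (4122 against 3808 and 6546 against 6086).

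To set the arrays on one scale, the signals of each were divided by the 75th percentile over 555 probes detected on both, a value of 786 for the gland and 719 for the flank. Detection of a probe required over 50% of its spots to be well above background. This step lowers every log2 ratio of gland over flank by 0.13, and it leaves the difference between any 2 miRNAs on the array as it was.

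After scaling, the log2 ratio of mmu-miR-203 was -0.31 with a standard error over spots of 0.03, a ratio of 0.805. The probes gave -0.34 ± 0.04 (SE over spots) and -0.27 ± 0.03. With the ratio taken at each spot position of the slide layout, all 20 positions were below 0, from -0.45 to -0.15 (median -0.33). The lower signal in the gland was therefore present in both probes and at each position, although its size stayed under the 1.5-fold threshold. Its size also depends on the scaling, and under the 4 other scalings the log2 ratio was nearer to 0, at -0.20 to -0.15.

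The scaled log2 ratio of mmu-miR-205 was -0.02 with a standard error over spots of 0.02, a ratio of 0.985. Its probes gave -0.03 ± 0.04 (SE over spots) and -0.02 ± 0.02. Of 18 spot positions measured on both arrays, 8 were above 0 and 10 below, from -0.16 to 0.13 (median -0.02). Unscaled, 17 of the 18 were brighter in the gland, so for mmu-miR-205 the direction rests on the scaling. Its log2 ratio was below 0 under 9 of 13 alternative settings and above 0 under 4. All 4 of them were other scalings, which gave 0.10 to 0.30. No direction is given for it here.

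The difference between the pair does not depend on a common scale factor. The log2 ratio of mmu-miR-203 was lower than that of mmu-miR-205 by 0.29, or -0.29 ± 0.03 (SE over spots), which corresponds to a 1.22-fold difference between their gland to flank ratios. This SE covers spots only. The scanner software's own error on each miRNA's total, given below, was not carried into it. Quantile normalization, which is not a common factor, gave -0.45. Of the 20 positions of mmu-miR-203, 18 lay below all 18 positions of mmu-miR-205. The quantity compared here is the gland to flank ratio of each miRNA, since signals of different probes do not give the relative amounts of the miRNAs. This comparison was added after the data were seen.

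The values were also taken by place on the array. In the upper part of the array, up to row 96, mmu-miR-203 had a median log2 ratio of -0.34 over 14 positions, and in the lower part -0.29 over 6. For mmu-miR-205 the medians were 0.00 over 11 positions and -0.06 over 7. In both parts of the array mmu-miR-203 was the lower of the pair.

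Both members lay below the median of all miRNAs, although mmu-miR-205 lay above it after quantile normalization, by 0.12 and with 67.3% of miRNAs at a lower ratio. Over the 284 miRNAs detected on both arrays the median log2 ratio was 0.05, with quartiles of -0.14 and 0.22, and 164 were above 0 and 120 below. mmu-miR-203 was below the lower quartile, with 44 miRNAs (15.5%) at a lower ratio than its own. mmu-miR-205 was between the quartiles, with 109 miRNAs (38.4%) at a lower ratio. Set against that median, mmu-miR-203 was at -0.36 and mmu-miR-205 at -0.07.

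The scanner software also gives a total signal for each miRNA with an error of its own. For mmu-miR-203 this total was 1966 ± 143 (software's error) in the gland and 2184 ± 160 in the flank, a difference of -218 against a combined error of 214. For mmu-miR-205 it was 7065 ± 513 in the gland and 6408 ± 465 in the flank, a difference of 657 against a combined error of 693. Each unscaled difference was about as large as its combined error. For these members the software's error was 7.26% to 7.30% of the total.

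The opposite strand of the miR-203 hairpin, mmu-miR-203*, is the arm that is usually degraded once the guide strand is loaded. It was read by 4 probes of 5 spots each and was much nearer to background. Its averaged intensity was 28.4 in the gland and 34.3 in the flank, with 9 and 11 of its 20 spots well above background. The 2 probes that were detected gave scaled log2 ratios of -0.41 and -0.44, and the average of all 4 probes gave -0.41. A probe with 0 spots well above background in the gland and 1 in the flank gave -0.64. The dimmest probe had 0 spots well above background on either array, and its log2 ratio of 1.10 is one of background signals. The brightest probe, with all 5 spots well above background on each array, gave 56.3 ± 6.35 (SD, 5 spots) in the gland and 69.7 ± 4.29 in the flank, and its 5 gland spots lay under every flank spot. The ratio of this strand was below 0 under every alternative but that of the dimmest probe, from -0.75 with the software's totals to -0.13 after normexp. Only with the totals and the deposited table of them was it at least 1.5-fold lower. The software's total for it was 29.7 in the gland and 43.6 in the flank, but the first sums 2 probes and the second 3. Over the 2 probes summed on both arrays the ratio of the totals was 0.832 and not 0.681. No other array name began with that of mmu-miR-205.

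The mature sequences are given to show how far the members differ from each other and from their nearest relatives. They were taken from RefSeq (GRCm38.p6), where both members and mmu-miR-203* were matched. The array names carry no arm, so the arm was assigned by the older naming, in which mmu-miR-203 is the 3p arm, mmu-miR-203* the 5p arm and mmu-miR-205 the 5p arm. Bases 2 to 8, the seed that pairs with targets, are in capitals, and each sequence runs 5′ to 3′.
mmu-miR-203: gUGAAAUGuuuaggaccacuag
mmu-miR-203*: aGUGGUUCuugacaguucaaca
mmu-miR-205: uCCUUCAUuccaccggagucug

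The 3 seeds differ, and none is shared with another of the 1679 mature mouse names in that table, so no seed family could be formed on the array for either member. Aligned over their 22 bases, mmu-miR-203 and mmu-miR-205 are 15 edits apart. The nearest other mature sequence to mmu-miR-203 is mmu-miR-203b-3p, at 6 edits, and the nearest to mmu-miR-205 is mmu-miR-7674-3p, at 7 edits.

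In GRCm38.p6 the mature mmu-miR-203 lies at chr12:112130927-112130948 on the plus strand, at bases 48 to 69 of a hairpin of 76 bases. Mir203 has Aspg and Kif26a as its neighbouring genes. The miR-203b locus runs through the same hairpin on the minus strand, and its mature mmu-miR-203b-5p lies at chr12:112130927-112130946, opposite mmu-miR-203 itself. The array had 0 probes named for miR-203b. The mature mmu-miR-205 lies at chr1:193507503-193507524 on the minus strand, at bases 7 to 28 of a hairpin of 68 bases, within the long noncoding RNA gene Mir205hg. The members are therefore on different chromosomes. The hairpins are shown because both arms of miR-203, and only the 5p arm of miR-205, were read by the array. The guide strand is in capitals.
Mir203 hairpin: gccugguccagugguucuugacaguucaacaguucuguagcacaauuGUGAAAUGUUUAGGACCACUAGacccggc
Mir205 hairpin: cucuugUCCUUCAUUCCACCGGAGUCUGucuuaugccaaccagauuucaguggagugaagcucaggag

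The pair was also set beside 8 other miRNAs known from epithelia, which does not test the epithelial label of the pair itself. These were the miR-200 family (mmu-miR-200a, mmu-miR-200b, mmu-miR-200c, mmu-miR-141 and mmu-miR-429) and the cluster of mmu-miR-183, mmu-miR-96 and mmu-miR-182. All 8 were detected on both arrays, so these epithelial markers were read in both regions, but none of them tells epidermis from mammary bud. Their median log2 ratio was 0.40, from 0.21 for mmu-miR-141 to 0.56 for mmu-miR-96, and their summed unscaled intensity was 6032 in the gland and 4123 in the flank. All 8 had a higher ratio than mmu-miR-203 and than mmu-miR-205. Of the 284 miRNAs detected on both arrays, 239 were above mmu-miR-203 and 174 above mmu-miR-205. The mesenchymal and endothelial miRNAs read below and detected on both arrays were above both members too, from 0.07 and 0.05 upward. Lying above the pair is thus not particular to the epithelial list. All 8 epithelial miRNAs stayed above mmu-miR-203 under each of the 13 alternative settings and above mmu-miR-205 under 12 of them. After quantile normalization 7 of 8 were above mmu-miR-205. A common scale factor or another detection rule cannot change this order, so those settings do not test it. Of the 8, 0 reached 1.5-fold, against the 2.11% called higher among all miRNAs. Without scaling 3 of the 8 did so, against 5.28% of all. After quantile normalization mmu-miR-205, at 0.30, lay within the range of the list, 0.25 to 0.61. Without replicate arrays, no error between samples can be set beside these differences.

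**Figure D2:**
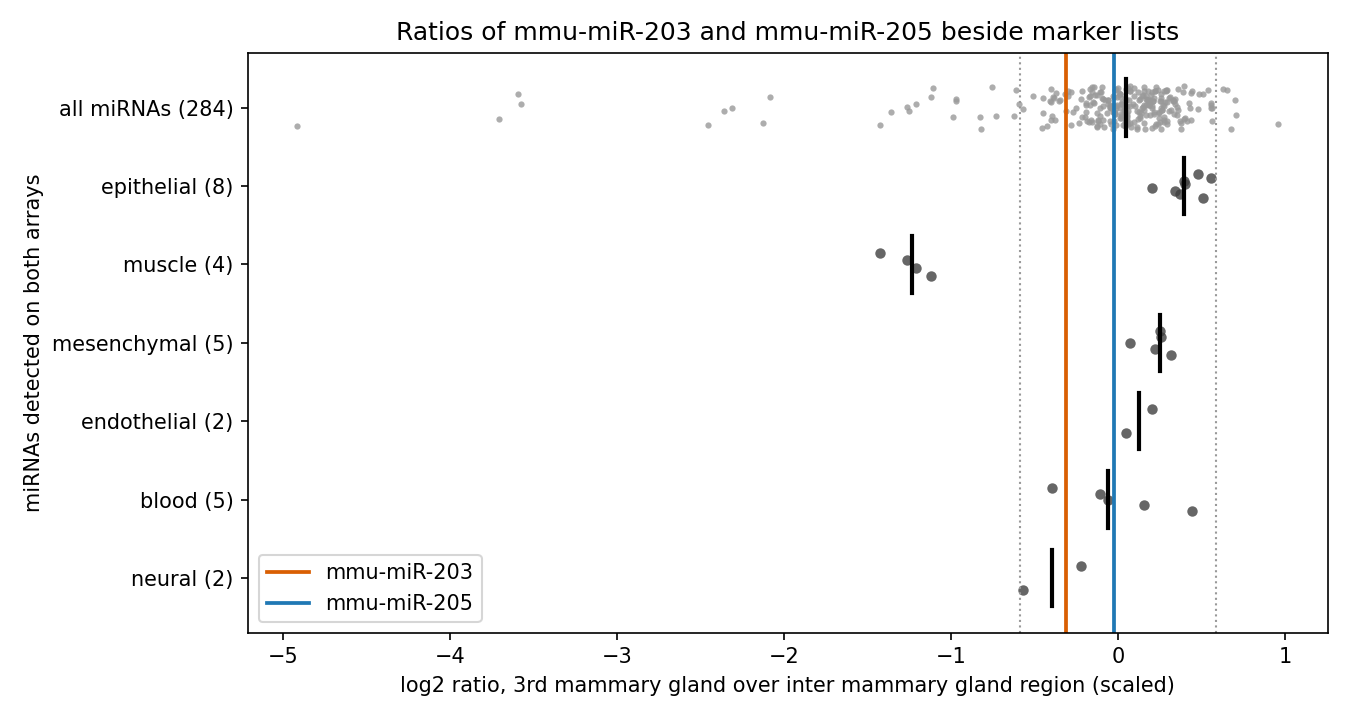
Log2 ratio of gland over flank, after scaling, for the 284 miRNAs detected on both arrays (grey points) and for the members of each list detected on both (dark points), with black bars at the medians and dotted lines at 1.5-fold in each direction. mmu-miR-203 (orange line, -0.31) and mmu-miR-205 (blue line, -0.02) both lie to the left of all 8 epithelial miRNAs, whose median is 0.40. They also lie to the left of all mesenchymal and endothelial miRNAs shown, and of 239 and 174 of the 284.

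Lists of miRNAs known from other tissues were read beside mmu-miR-203 and mmu-miR-205, and their part in the values of the pair was not tested. Past 1.5-fold in either direction were 11.3% of all miRNAs. Of these lists the muscle list alone held such miRNAs, and the mesenchymal, endothelial, blood and neural lists held 0. For lists this short 0 is near that share and is no result about them. By the 75th percentile of all probes and by quantile normalization 1 blood miRNA was at least 1.5-fold higher, against 6.69% and 4.93% of all. With the software's totals, every spot required well above background or the dimmest probe, 1 neural miRNA was lower, against 11.8%, 9.42% and 10.2%. The 4 striated muscle miRNAs (mmu-miR-1, mmu-miR-133a, mmu-miR-133b and mmu-miR-206) were all detected on both arrays and all at least 1.5-fold lower in the gland, where 9.15% of all miRNAs were, with a median log2 ratio of -1.24, farther from 0 than the -0.31 of mmu-miR-203. Their summed unscaled intensity was 1646 in the gland and 3610 in the flank, and mmu-miR-133b had the brightest probes. Of 7 mesenchymal names 6 were on the array and 5 were detected on both, all 5 above 0 with a median of 0.25. The summed unscaled intensity of the 6 on the array was 34934 in the gland and 27009 in the flank, with mmu-miR-199a-3p the brightest and mmu-miR-145 not detected. Both endothelial miRNAs, mmu-miR-126-3p and mmu-miR-126-5p, were detected, with a median of 0.13 and a summed unscaled intensity of 2160 and 1896.

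Of the 7 blood miRNAs 5 were detected on both arrays, 2 above 0 and 3 below with a median of -0.06 (4 above and 1 below without scaling), and mmu-miR-142-5p and mmu-miR-150 were not. Over all 7 the summed unscaled intensity was 6242 in the gland and 4352 in the flank, or 7.94 and 6.06 after scaling. Of the unscaled sums, mmu-miR-451 alone made up 5682 and 3822. Of 4 neural miRNAs 2 were detected on both, mmu-miR-128 at -0.57 and mmu-miR-138 at -0.22, whereas mmu-miR-9 and mmu-miR-124, the best known neuronal markers, were not detected in either region. The summed unscaled intensity of the 4 was 184 in the gland and 225 in the flank.

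By ratio alone, the 3 miRNAs nearest to mmu-miR-203 were mmu-miR-98 (-0.31), mmu-miR-99b* (-0.30) and mmu-miR-466c-5p (-0.30), each over the 2 arrays. The nearest to mmu-miR-205 were mmu-miR-1198 (-0.02), mmu-miR-376b (-0.02) and mmu-miR-543 (-0.02). A likeness over 2 arrays is a single number, and it says only that these ratios were the nearest to that of the member.

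The log2 ratio of mmu-miR-203 stayed below 0 under all 13 alternative settings, from -0.38 to -0.15, and neither member passed 1.5-fold under any of them. The difference between the members stayed below 0 under all 13 as well, from -0.45 to -0.25, but not all 13 could move it. Settings that changed only a common scale factor or the detection rule left it at -0.29 by construction. The software's totals and the deposited table of them are the same values and count as 1 setting here. The scaling changed the distance of each member from 0 and with it the sign of mmu-miR-205, and quantile normalization also widened the difference between the members.

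**Figure D3:**
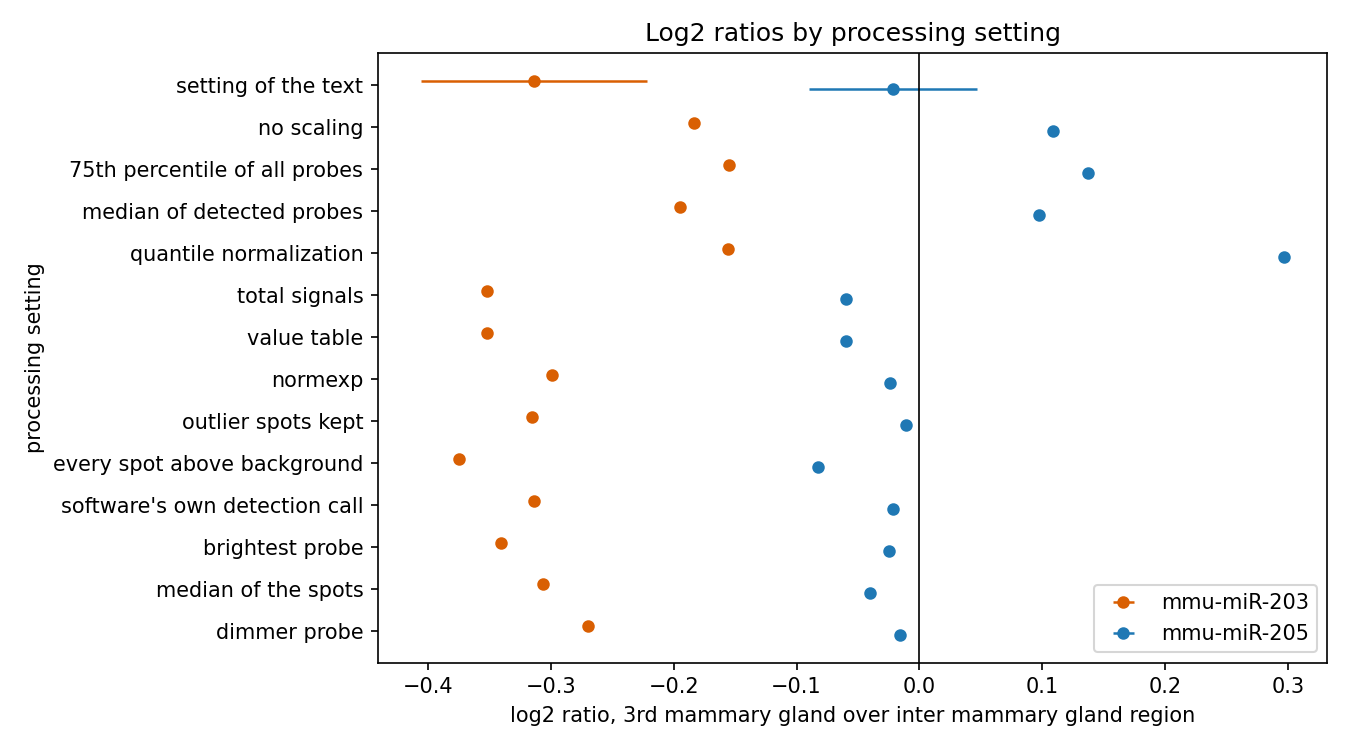
Log2 ratio of gland over flank for mmu-miR-203 (orange) and mmu-miR-205 (blue) under the setting of the text and 13 alternatives, with the SD over spot positions drawn for the setting of the text. mmu-miR-203 stays between -0.38 and -0.15, and mmu-miR-205 runs from -0.08 to 0.30 and crosses 0 with the scaling.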

How the data were processed

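miRNA levels in E13.5 gland (3rd mammary gland) and flank (inter mammary gland region) were read on 1 Agilent 1-colour array each, and samples were grouped by their labels. The authors quantified the scans with Feature Extraction (10.7.3.1) and deposited a linear background-subtracted intensity per spot with no normalization across arrays. Their value table holds total intensities per miRNA, summed over the probes whose signal was over 3 times their error, with 0.1 where the software called none. GeneSpring GX is named in the methods for normalization, but that table equals the software's totals, and the scaling was not given in the sources used here.

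Controls and outliers (1.67% of miRNA spots for the gland, 2.51% for the flank) were left out, the mean over the spots was taken for each probe, signals were divided by the array's 75th percentile over probes detected on both arrays, and probes of a miRNA were averaged. A miRNA was detected when at least 1 probe was, which gave 296 in the gland, 300 in the flank and 284 in both. No miRNA spot was saturated. The fold threshold was 1.5, and no p-value was computed. The miRNAs named are the members, other array names that begin with theirs, the epithelial, muscle, mesenchymal, endothelial, blood and neural lists, the 3 nearest ratios per member, and any miRNA sharing a seed. The members and lists were chosen with earlier results of these data known.

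Alternatives covered the scaling, the signal column, outlier spots, detection, the choice among probes, the summary of spots, the threshold and a filter that left out miRNAs with an intensity under 50. Normexp was run with an offset of 50 on the median pixel signal. The steps were tested on simulated data. Sequences and positions came from RefSeq (GRCm38.p6). The array's grid names another build, whose coordinates were not used. Python 3.11.15 with numpy 2.4.6, pandas 2.3.3, matplotlib 3.10.9 and edlib were used, with limma 3.58.1 in R 4.3.3 for normexp.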

Additional observations from a re-analysis of the deposited data

How the results depend on the processing

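No paired analysis was possible because only 1 array was hybridized per region. Scaling moved most values, by construction, since it shifts every ratio: the median log2 ratio of all miRNAs, 0.05 in the text, was 0.18 with no scaling, 0.21 when all probes entered the percentile, 0.17 with the median of detected probes and 0.17 after quantile normalization. In that order, mmu-miR-203 was at -0.18, -0.15, -0.20 and -0.16, mmu-miR-205 at 0.11, 0.14, 0.10 and 0.30, and the miRNAs at least 1.5-fold higher numbered 15, 19, 15 and 14. The epithelial median was 0.53, 0.56 and 0.52 under the first 3. Against the median of all, mmu-miR-203 stayed at -0.36 under those 3 and was at -0.33 after quantile normalization, and mmu-miR-205 at -0.07 and 0.12. The share of calls that were higher was 18.8% in the text, 39.5% unscaled, 46.3% with all probes and 38.9% after quantile normalization. Quantile normalization also moved the difference between the members to -0.45, and the cause was not tested. Of the higher calls there were 18 with the software's totals and 18 with the deposited table of them, 2 after normexp and 13 with the software's own detection call. With the dimmest probe of each miRNA 22 were higher and 27 lower (44.9% of calls higher). At 2-fold 0 were higher and 16 lower, and at 1.2-fold 56 and 50. The other values moved by less than the SD over spot positions, 9 of 13 for each member, 12 of 13 for their difference and 10 of 13 for the epithelial median, and the other counts, 5 of 16 higher and 14 of 16 lower, by at most 1.5 times. For the difference, the scalings by a common factor and the detection settings could not move it. The dimmest probe alone and the difference between members were added after the data were seen. Signal over background did not limit the members, but it did limit mmu-miR-203*.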
